A study of Mus musculus with 2 samples.

Results

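The genes described here encode the constitutive proteasome, its activators and the chaperones that assemble it. They were taken by symbol from the deposited gene list: every gene named Psma, Psmb, Psmc, Psmd, Psme or Psmg followed by a number, leaving out Psmb8, Psmb9 and Psmb10, which encode the catalytic subunits of the immunoproteasome. This gave 44 of 31253 genes. By symbol, 16 were grouped as 20S core (Psma and Psmb) and 20 as 19S regulatory particle (Psmc and Psmd). Another 4 were grouped as activators (Psme) and 4 as assembly chaperones (Psmg). The rule uses no measured value.

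Living host immune cells, CD45.2+ and without CD45.1, were sorted from gliomas of mice, and their RNA was sequenced cell by cell on the BD Rhapsody system, which catches cells in microwells with barcoded beads. There was 1 library from tumours treated with PBS (phosphate-buffered saline) and 1 from tumours treated with EM, whose title gives 72 h. By its title the series is about transferred macrophages that reverse immune suppression in the tumour, and EM against PBS shows how immune cells of the host differed. What EM abbreviates is not in the labels, nor is which glioma line, mouse strain, age or dose was used, how many animals went into a library, or when the PBS tumours were taken.

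The proteasome is the barrel-shaped protease that degrades proteins tagged with ubiquitin. Its 20S core stacks rings of alpha and beta subunits, and the beta subunits encoded by Psmb6, Psmb7 and Psmb5 carry the constitutive catalytic sites. The 19S particle caps the core: its ATPases (Psmc) unfold substrates, and some of its other subunits, encoded by Psmd genes, bind and remove ubiquitin. The Psme proteins are alternative caps: PA28 alpha and beta (Psme1, Psme2) are interferon-inducible and linked to peptide supply for MHC class I, PA28 gamma (Psme3) is mostly nuclear, and PA200 (Psme4) is a nuclear cap linked to histone turnover. In immune cells, interferon also exchanges the constitutive catalytic subunits for those of the immunoproteasome.

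After filtering, 7756 PBS cells with 43538431 UMIs and 7967 EM cells with 19302929 UMIs remained (a UMI is 1 captured RNA molecule). The cells of the PBS library were deeper, with a median of 4303 UMIs against 2016. As each group is 1 library, no test or replicate check could be made, and a difference between EM and PBS is a difference between these libraries. The libraries also differed in sex-linked RNA: Xist stood at 10.6 CPM (UMIs per 1000000 UMIs of the cells considered) in PBS and 384 CPM in EM, and Ddx3y at 192 and 4.46 CPM. Sex-linked expression and treatment cannot be told apart, and among the regulatory genes Psmd10 is on the X chromosome. The libraries shared 66 barcodes, of which 62 belonged to kept PBS cells and 66 to kept EM cells. Of the core and regulatory medians given below, the one for regulatory genes in microglia-gated cells differed most without them, at 0.54 in place of 0.63.

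Cells were assigned to classes by how many of 8 marker genes per class they contained. T cells were the main class (4047 PBS and 5162 EM cells), followed by monocytes and macrophages (1328 and 597), natural killer (NK) cells (218 and 436) and dendritic cells (95 and 307). Another 308 PBS and 159 EM phagocytes contained at least 3 of 8 microglial markers. The data go against calling that class microglia in the PBS library: its cells held the tumour macrophage genes Mrc1 and Arg1 at 899 and 768 CPM (9.07 and 81.6 CPM in EM), while the microglial genes P2ry12 and Tmem119 stood at 357 and 119 CPM against 907 and 326 CPM in EM. It is therefore called microglia-gated below, and the cells mixed into it differ between the libraries. The same holds for monocytes and macrophages, where Mrc1 stood at 1153 CPM in PBS against 111 in EM, Arg1 at 1095 against 166, and the monocyte gene Ly6c2 at 184 against 2655. Of its cells, 137 in PBS and 76 in EM held exactly 3 microglial markers, while 321 PBS and 97 EM cells left in the monocyte and macrophage class held 2.

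Over cells of all depths, the core genes were higher in EM in both phagocyte classes and close to level in T and dendritic cells; values at matched depth, which are higher in both of the latter, are given further on. In monocytes and macrophages, 13 of 14 measured core genes were higher, with a median log2 ratio of EM over PBS of 0.46, against -0.23 over all measured genes of the class. Among those without Arg1 and Mrc1 UMIs, a choice that also selects by depth, the median was 0.20. In microglia-gated cells, 13 of 14 were also higher, with a median of 0.73 against -0.20. The median was 0.23 in NK cells (all measured genes -0.09), -0.02 in T cells (-0.11) and 0.05 in dendritic cells (-0.04). A gene counted as measured in a class with at least 50 UMIs over both libraries, and 2 core genes, Psma8 and Psmb11, were measured in none.

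The regulatory genes moved with the core in microglia-gated cells and less so elsewhere. Their median log2 ratio was 0.63 in microglia-gated cells, where 19 of 20 were higher, and 0.09 in monocytes and macrophages, where 12 of 20 were higher. It was 0.03 in T cells (20 measured), -0.01 in NK cells (19 measured) and -0.10 in dendritic cells (18 measured). The difference between the core and the regulatory medians was not tested.

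Set against a fold of 1.5, few members stood out except in the microglia-gated class. In that class 10 of 14 core and 11 of 20 regulatory genes were at least 1.5-fold higher in EM, beside 18.1% of all measured genes, and 0 core and 1 regulatory gene were as much lower, beside 39%. Monocytes and macrophages had 3 of 14 core and 2 of 20 regulatory genes higher by that fold (13.7% of all measured genes) and 1 regulatory gene lower (34.4%). The core count of higher genes is thus near the background share, while 0 of 14 core genes were lower by that fold.

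In lymphocytes and dendritic cells the counts past the fold were small. T cells had 0 core and 2 regulatory genes at least 1.5-fold higher (9.83% of all measured genes) and none lower (17.9%). NK cells had 2 of 14 core and 2 of 19 regulatory genes higher (11.4%), and 3 regulatory genes lower (18.9%). Dendritic cells had 0 core and 2 of 18 regulatory genes higher (13.8%) and none lower (16%). The counts of higher regulatory genes in T and NK cells were therefore near the background share, while 0 of 20 were lower in T cells. Over all kept cells together, 0 of 15 core and 2 of 20 regulatory genes were higher by that fold (11.4%) and 1 core gene, Psma8, was lower (24.3%).

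**Figure D1:**
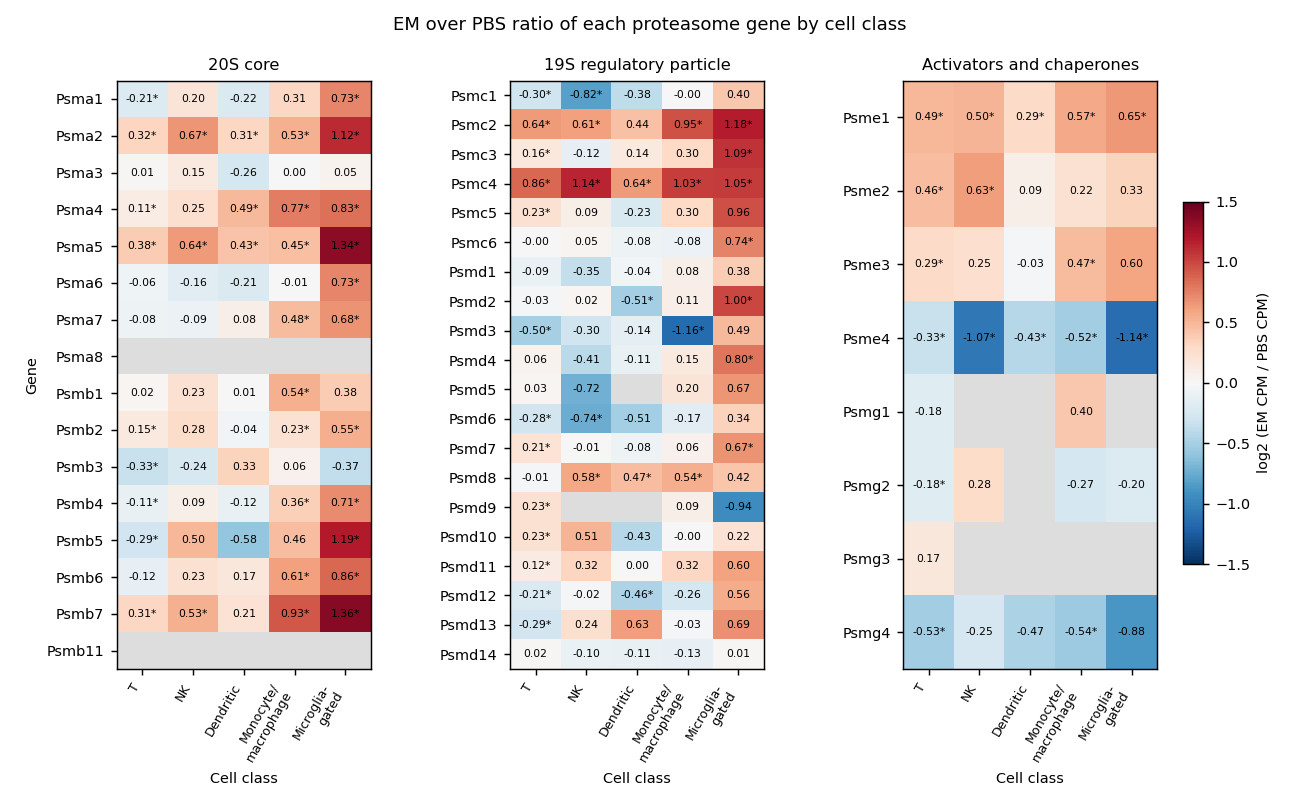
Log2 ratio of EM CPM over PBS CPM (colour and printed value) for each of the 44 genes (rows) in 5 cell classes (columns), grey where a gene had fewer than 50 UMIs over both libraries and starred where the 95% counting interval of the ratio leaves out 0. The microglia-gated column is mostly red, Psmc2 and Psmc4 are red in every column and Psme4 is blue in every column.

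Of the alpha subunits, which form the outer rings and the gate of the core, Psma2 and Psma5 were higher in EM in all 5 classes with every counting interval above 0. Psma5 stood at 62.7 CPM (PBS) and 81.5 CPM (EM) in T cells, a log2 ratio of 0.38 (95% interval 0.26 to 0.50), the highest of the core in that class. It stood at 66.7 and 91.2 CPM in monocytes and macrophages, a log2 ratio of 0.45 (0.11 to 0.78). In microglia-gated cells it stood at 46.4 and 118 CPM, on 157 and 26 UMIs, a log2 ratio of 1.34 (0.69 to 1.95). All intervals given here cover counting error only and say nothing of the spread between animals.

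Psma2 was the other core gene with a like order of ratios. It stood at 273 CPM (PBS) and 342 CPM (EM) in T cells, a log2 ratio of 0.32. NK cells gave its log2 ratio as 0.67 (203 and 322 CPM), which with the 0.64 of Psma5 made these the highest core ratios in that class. The lowest core ratios in NK cells were those of Psma6, at -0.16, and Psmb3, at -0.24, both with intervals that hold 0.

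Psma4 was also higher in all 5 classes, from 0.11 in T cells to 0.83 in microglia-gated cells on the log2 scale. Among monocytes and macrophages it stood at 162 CPM (PBS) and 276 CPM (EM), a log2 ratio of 0.77 (0.57 to 0.96) and below only Psmb7 in the core there. Psma3 and Psma6 were level in that class, at log2 ratios of 0.00 and -0.01, the lowest of its core genes. Psma1 and Psma7 were higher in microglia-gated cells (log2 ratios of 0.73 and 0.68), and in T cells they stood at -0.21 and -0.08. Psma8, a testis-enriched alternative to Psma7, had 58 UMIs in all PBS cells and 9 in all EM cells, and as its paralogue can share reads with Psma7 these counts are uncertain.

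The constitutive catalytic genes Psmb5, Psmb6 and Psmb7 did not move as a unit. Psmb7, of the trypsin-like site, was higher in all 5 classes, at 86.9 CPM (PBS) and 108 CPM (EM) in T cells (log2 ratio 0.31) and at 69.4 and 132 CPM in monocytes and macrophages (0.93, interval 0.65 to 1.21). Microglia-gated cells held it at 61.8 and 159 CPM, a log2 ratio of 1.36 (0.80 to 1.88). Psmb7 thus had the highest core ratio of both phagocyte classes. It overlaps Nek6 on the opposite strand (1940 and 621 UMIs), and whether the counting used strand is not given in the sources used here, so reads of the pair cannot be told apart.

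Psmb5, of the chymotrypsin-like site, was lower in T cells, at 43.5 CPM (PBS) and 35.6 CPM (EM), a log2 ratio of -0.29 (-0.46 to -0.13). It was higher in microglia-gated cells, at 19.8 and 45.3 CPM on 67 and 10 UMIs, a log2 ratio of 1.19 (0.07 to 2.16). Among monocytes and macrophages it stood at 33.1 and 45.6 CPM, in NK cells at 29.4 and 41.6 CPM and in dendritic cells at 58.2 and 38.9 CPM, each with an interval of the ratio that holds 0. Psmb6, of the caspase-like site, was higher in monocytes and macrophages at 46.8 and 71.6 CPM, a log2 ratio of 0.61 (0.22 to 0.98). It was also higher in microglia-gated cells, at a log2 ratio of 0.86 (0.04 to 1.59), and in T cells its log2 ratio was -0.12 with an interval that holds 0.

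The other beta subunits are structural. Psmb3 was the lowest core gene in T cells, at 108 CPM (PBS) and 85.6 CPM (EM), a log2 ratio of -0.33 (-0.44 to -0.23). It was also the lowest in microglia-gated cells, at 47.0 and 36.3 CPM on 159 and 8 UMIs, where the interval of the log2 ratio (-1.61 to 0.64) holds 0, followed by Psma3 at 0.05. Psmb1 was close to level in T cells (log2 ratio 0.02) and higher in monocytes and macrophages, at 205 and 297 CPM (0.54). Psmb2 and Psmb4 stood at log2 ratios of 0.15 and -0.11 in T cells and 0.55 and 0.71 in microglia-gated cells. Psmb11, which belongs to the thymic epithelium, had 1 UMI in all PBS cells and 0 in all EM cells, where a count of 0 allows up to 3.

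Among the ATPases of the 19S base, Psmc4 and Psmc2 had the highest ratios in T cells, NK cells and monocytes and macrophages. Psmc4 was higher in EM in every class with every interval above 0: it stood at 42.1 CPM (PBS) and 76.6 CPM (EM) in T cells, a log2 ratio of 0.86 (0.73 to 0.99) on 899 and 981 UMIs. It stood at 30.7 and 67.8 CPM in NK cells, a log2 ratio of 1.14 (0.45 to 1.89), and at 39.2 and 80.3 CPM in monocytes and macrophages, a ratio of 1.03 (0.66 to 1.39). In dendritic cells the values were 60.5 and 94.0 CPM, and in microglia-gated cells 30.8 and 63.5 CPM on 104 and 14 UMIs. Psmc4 had the highest regulatory ratio in T cells, NK cells and monocytes and macrophages, and in T cells 94.4% of all measured genes had a lower ratio. Because Psmc4 was higher in all 5 classes, the bases around its start are shown, 180 before and 20 after, from RefSeq's GRCm38.p6 (chr7:28050073-28050272, minus strand), with no capitals because none of the 4 motifs searched, named with the activators below, lies in this stretch.
Psmc4: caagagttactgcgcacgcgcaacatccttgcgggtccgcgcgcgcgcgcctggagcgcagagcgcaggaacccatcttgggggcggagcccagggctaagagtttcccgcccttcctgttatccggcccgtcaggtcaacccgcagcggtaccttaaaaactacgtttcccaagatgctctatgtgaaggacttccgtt

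Psmc2 stood at 53.0 CPM (PBS) and 82.5 CPM (EM) in T cells, a log2 ratio of 0.64 (0.52 to 0.76). It was the second regulatory gene in NK cells (46.7 and 71.5 CPM, log2 ratio 0.61) and in monocytes and macrophages (39.2 and 76.0 CPM, 0.95). Microglia-gated cells gave its log2 ratio as 1.18 (42.0 and 95.2 CPM), followed by Psmc3 at 1.09 (40.5 and 86.1 CPM). Psmc4 and Psmc2 were thus the top of the regulatory list in T cells, NK cells and monocytes and macrophages, while the bottom differed.

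Psmc1, an ATPase of the same ring, was lower in lymphocytes: it stood at 103 CPM (PBS) and 83.8 CPM (EM) in T cells, a log2 ratio of -0.30 (-0.40 to -0.19). In NK cells it stood at 123 and 69.6 CPM, giving a log2 ratio of -0.82 (-1.27 to -0.37), the lowest regulatory ratio there. It was level in monocytes and macrophages (93.4 CPM in both). Psmc5 and Psmc6 stood at log2 ratios of 0.23 and 0.00 in T cells and at 0.96 and 0.74 in microglia-gated cells, where only the interval of Psmc6 leaves out 0. Ratios of subunits that occupy 1 ring were therefore unequal within a class.

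Most of the 14 Psmd genes encode non-ATPase subunits, among them the scaffolds Psmd1 and Psmd2, the ubiquitin receptor Psmd4 and the deubiquitinase Psmd14. Psmd5, Psmd9 and Psmd10 encode assembly chaperones of the regulatory particle, and were counted with the regulatory genes by symbol only. The summed level of all 14 had EM over PBS folds of 0.990 in T cells, 0.992 in NK cells and 1.04 in monocytes and macrophages, with intervals of the log2 ratio that hold 0. In microglia-gated cells the fold was 1.44. Psmd1, Psmd5 and Psmd14 had no interval that leaves out 0 in any class, and the ratios of Psmd14 lay between -0.13 and 0.02.

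Psmd3, a structural subunit of the lid, was lower in EM in both larger classes. It stood at 40.9 CPM (PBS) and 29.0 CPM (EM) in T cells, a log2 ratio of -0.50 (-0.68 to -0.32). Monocytes and macrophages held it at 43.6 and 19.5 CPM on 545 and 18 UMIs, a log2 ratio of -1.16 (-1.92 to -0.48). It was the lowest regulatory gene in each of these classes, ahead of Psmd12 in monocytes and macrophages (-0.26, interval -0.63 to 0.09), and in microglia-gated cells it stood at 38.7 and 54.4 CPM with an interval that holds 0.

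Psmd8 was higher in NK cells (64.0 and 95.9 CPM) and in monocytes and macrophages (89.4 and 130 CPM), with log2 ratios of 0.58 and 0.54 whose intervals leave out 0, while in T cells it was at -0.01. Psmd2 was higher in microglia-gated cells, at 63.6 and 127 CPM, and lower in dendritic cells, at 120 and 84.1 CPM. Psmd6 had the second lowest regulatory ratio in NK cells, -0.74 (57.4 and 34.4 CPM), and stood at -0.28 in T cells. In microglia-gated cells the lowest regulatory ratios were those of Psmd9, at -0.94 on 59 and 2 UMIs, and Psmd14, at 0.01. The X-linked Psmd10 stood at 28.8 and 33.8 CPM in T cells, a log2 ratio of 0.23 (0.05 to 0.41), and at 27.2 and 27.1 CPM in monocytes and macrophages. The remaining Psmd genes (4, 5, 7, 11 and 13) had T cell log2 ratios between -0.29 for Psmd13 and 0.21 for Psmd7.

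The activators split: Psme1, Psme2 and mostly Psme3 were higher in EM, and Psme4 was lower in all 5 classes. The stretches around the starts of Psme1, Psme2 and Psme4 are shown because these genes moved in opposite directions and because interferon response genes differed between the libraries. They hold 180 bases before the start and 20 after it, from RefSeq's GRCm38.p6, at chr14:55578314-55578513 (plus strand), chr14:55591082-55591281 (minus strand) and chr11:30771595-30771794 (plus strand). RefSeq lists 2 starts for Psme2, of which 1 is shown. Capitals mark a motif match.
Psme1: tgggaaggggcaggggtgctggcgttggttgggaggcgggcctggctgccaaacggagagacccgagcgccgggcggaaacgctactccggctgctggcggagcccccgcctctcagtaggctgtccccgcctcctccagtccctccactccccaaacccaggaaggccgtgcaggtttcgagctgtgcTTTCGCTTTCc
Psme2: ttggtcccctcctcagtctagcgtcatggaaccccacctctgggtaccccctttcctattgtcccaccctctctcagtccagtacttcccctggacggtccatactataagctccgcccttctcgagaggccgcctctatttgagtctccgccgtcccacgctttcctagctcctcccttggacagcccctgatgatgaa
Psme4: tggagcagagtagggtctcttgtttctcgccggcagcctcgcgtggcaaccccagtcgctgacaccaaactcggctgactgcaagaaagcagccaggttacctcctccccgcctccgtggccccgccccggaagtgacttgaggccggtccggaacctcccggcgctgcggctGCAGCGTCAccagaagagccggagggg

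Motifs were searched on both strands as letters, in windows of 250 bases before to 50 after a start, which the table held for 36 of the 44 members and for 32851 starts in all. The interferon-stimulated response element (GAAA, any 2 bases, GAAA) was in 3.44% of all windows and in those of 5 of the 36 members, Psmb3, Psmd4, Psmd9, Psme1 and Psmg4. In Psme1 it lies 9 to 18 bases after the first base of the RefSeq transcript, counted from 0. The printed strand of the gene reads TTTCGCTTTC there, so the element itself is on the reverse strand. GENCODE starts Psme1 earlier, at 55578123, so by that source the whole printed stretch lies inside the gene. The antioxidant response element (TGACNNNGC) was in 12.4% of windows and 6 members, among them Psmb5, Psmb6 and Psme4, where it spans bases -7 to 1 as GCAGCGTCA. The gamma activation site (TTCNNNGAA) was in 8.30% of windows and 2 members, and the CCAAT box (CCAAT) in 37.4% and 13. Of the 5 genes with the interferon letters, Psme1 was higher in every class and Psmg4 lower in every class. A match only says that these letters are present.

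Psme1 (chr14:55578123-55581529, plus strand, GRCm38) was higher in EM in all 5 classes with every interval above 0. It stood at 270 CPM (PBS) and 381 CPM (EM) in T cells, a log2 ratio of 0.49 (0.44 to 0.55), and at 272 and 386 CPM in NK cells (0.50, interval 0.26 to 0.75). Monocytes and macrophages held it at 253 and 376 CPM (0.57, interval 0.41 to 0.73; lower at most matched depths, as given further on), and microglia-gated cells at 228 and 358 CPM (0.65, interval 0.30 to 0.99). Dendritic cells had the highest level in both libraries, 511 and 626 CPM, and the smallest log2 ratio, 0.29 (0.12 to 0.47). With each cell reduced at random to 1000 UMIs that dendritic ratio was -0.014, and with equal weight per cell it was 0.48.

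Psme2, the partner of Psme1 in the PA28 ring, was higher by a like amount in lymphocytes and less clearly elsewhere. It stood at 102 CPM (PBS) and 141 CPM (EM) in T cells, a log2 ratio of 0.46 (0.37 to 0.55), and at 74.7 and 116 CPM in NK cells (0.63, interval 0.17 to 1.11). In monocytes and macrophages (100 and 117 CPM), microglia-gated cells (68.3 and 86.1 CPM) and dendritic cells (196 and 209 CPM) the intervals hold 0. The near-identical copy Psme2b, which can share reads with Psme2, stood at 16.9 and 34.9 CPM in T cells, so the counts of the pair are uncertain.

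Psme3 stood at 126 CPM (PBS) and 154 CPM (EM) in T cells, a log2 ratio of 0.29 (0.20 to 0.37), and at 75.3 and 104 CPM in monocytes and macrophages (0.47, interval 0.15 to 0.77). NK cells (133 and 159 CPM), microglia-gated cells (65.9 and 99.7 CPM) and dendritic cells (127 and 124 CPM) gave intervals that hold 0. Psme3 was thus higher in the classes with the most UMIs and not separable from level in the rest.

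Psme4 was lower in EM in every class with every interval below 0. It stood at 133 CPM (PBS) and 105 CPM (EM) in T cells, a log2 ratio of -0.33 (-0.43 to -0.24), and at 179 and 85.0 CPM in NK cells, where the ratio was -1.07 (-1.47 to -0.68). Among monocytes and macrophages it stood at 169 and 118 CPM (-0.52, interval -0.81 to -0.24), in microglia-gated cells at 180 and 81.6 CPM (-1.14, interval -1.91 to -0.47) and in dendritic cells at 150 and 111 CPM (-0.43, interval -0.79 to -0.06).

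**Figure D2:**
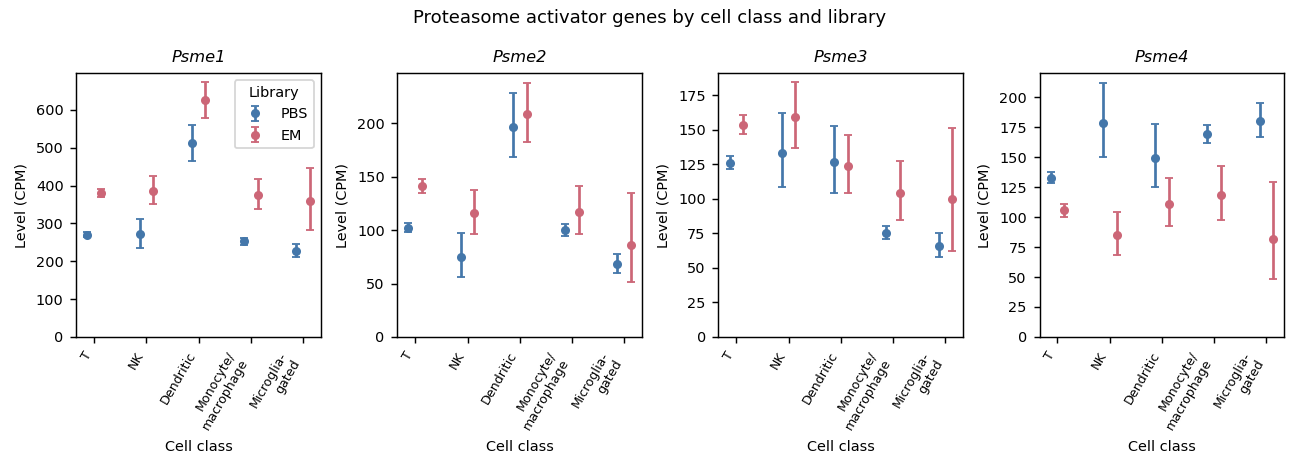
Level (CPM, linear axis from 0) of Psme1, Psme2, Psme3 and Psme4 in 5 cell classes, with 1 point per library (PBS blue, EM red) and bars for the exact 95% Poisson interval of the count. Psme1 is higher and Psme4 lower in EM in each class, and for Psme1 dendritic cells lie above the other classes in both libraries.

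The assembly chaperones of the Psmg group were lower or unclear. Psmg4, which helps order the alpha ring, stood at 65.0 CPM (PBS) and 45.1 CPM (EM) in T cells, a log2 ratio of -0.53 (-0.67 to -0.39), and at 66.5 and 45.6 CPM in monocytes and macrophages (-0.54, interval -1.03 to -0.10). Its ratio was below 0 in all 5 classes, from -0.25 in NK cells to -0.88 in microglia-gated cells. Psmg2 stood at -0.18 in T cells (44.2 and 38.9 CPM), 0.28 in NK cells, -0.27 in monocytes and macrophages and -0.20 in microglia-gated cells, where only the T cell interval leaves out 0. Psmg1 was measured in T cells (15.5 and 13.7 CPM) and in monocytes and macrophages (11.5 and 15.2 CPM) and Psmg3 in T cells only (4.03 and 4.53 CPM), all with intervals that hold 0.

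Over the 5 classes, 10 members were higher in EM in every class: Psma2, Psma4, Psma5, Psmb1, Psmb7, Psmc2, Psmc4, Psmd11, Psme1 and Psme2. These are 5 of 14 core, 3 of 18 regulatory and 2 of 4 activator genes measured in all 5 classes. The share of all genes that were higher in every class was not computed, so no background stands beside this count. In dendritic cells the log2 ratios of Psmb1 (0.008) and Psmd11 (0.0004) were level. Psme4 and Psmg4 were lower in every class. The classes share libraries, so the classes are not replicates of the treatment. Under 10 alternative settings in each class (50 values a gene), Psma2, Psma4, Psma5, Psmc2 and Psme4 kept their direction in all 50, whereas Psmb1 turned in 5 values, Psmd11 in 4, Psme2 in 3, Psmg4 in 2, and Psmb7, Psmc4 and Psme1 in 1 each.

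Of the catalytic subunits of the immunoproteasome, which are not members, all 3 were higher in EM in T cells, NK cells and both phagocyte classes, though the intervals of Psmb10 in NK cells and Psmb9 in microglia-gated cells hold 0. Psmb9 stood at 110 CPM (PBS) and 153 CPM (EM) in T cells, a log2 ratio of 0.49, and at 88.5 and 166 CPM in monocytes and macrophages (0.91). Psmb8 stood at 421 and 458 CPM in T cells (0.12) and Psmb10 at 107 and 134 CPM (0.33). Summed, these 3 genes had an EM over PBS fold of 1.17 in T cells, beside 1.06 for the 3 constitutive catalytic genes. In monocytes and macrophages the folds were 1.32 and 1.67, and in microglia-gated cells 1.45 and 2.26. The constitutive sum of T cells joins unlike log2 ratios, from -0.29 for Psmb5 to 0.31 for Psmb7. These are RNA sums over cells of all depths, and the mixtures of the phagocyte classes differ between the libraries. Which catalytic subunits the proteasomes held was not measured.

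Other factors of the proteasome gave no common direction. Pomp, which completes core assembly, stood at log2 ratios of 0.09 in T cells, 0.34 in monocytes and macrophages and 0.84 in microglia-gated cells (174 and 313 CPM). Adrm1, a ubiquitin receptor of the 19S particle, was lower in T cells, at 21.0 and 12.5 CPM, and in monocytes and macrophages, at 16.8 and 7.60 CPM. Psmf1, an inhibitor of the core, stood at 0.09 in T cells, -0.22 in monocytes and macrophages and 1.76 in microglia-gated cells (22.8 and 77.1 CPM). Over the 9 measured genes of that list, 4 were higher and 5 lower in T cells, and 3 and 6 in monocytes and macrophages.

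Nfe2l1, the factor known to raise proteasome genes when the proteasome is blocked, was lower in EM in T cells, at 32.4 and 22.9 CPM, a log2 ratio of -0.50 (-0.70 to -0.30). It stood at -0.88 in NK cells and -0.67 in monocytes and macrophages, with intervals below 0, and at -0.99 in microglia-gated cells (36.1 and 18.1 CPM), where the interval holds 0. The list of 9 regulators of proteasome genes had a median log2 ratio of -0.08 in T cells, -0.45 in monocytes and macrophages and -1.03 in microglia-gated cells. Over all measured genes these medians were -0.11, -0.23 and -0.20. In microglia-gated cells 0 of 9 were higher, beside 2857 of 7244 measured genes, and 7 were at least 1.5-fold lower, beside 39%. Mafk was the highest of the list in T cells (0.69), NK cells (1.73), monocytes and macrophages (1.05) and dendritic cells (1.60). In the phagocyte classes the regulator median lay below 0, as did that of all measured genes, and the core median above 0.

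Of the ubiquitin genes, Ubb, which encodes a ubiquitin chain, was higher in EM in T cells, NK cells and monocytes and macrophages, at log2 ratios of 0.88, 0.92 and 0.56. The ubiquitin-activating gene Uba6 stood at -0.42 in T cells and -0.78 in NK cells. The list of 10 shuttle factors and segregase genes had medians of -0.04 in T cells and -0.23 in monocytes and macrophages.

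Type I interferon response genes were far higher in EM in these same cells: 19 of 19 measured were at least 1.5-fold higher in T cells and in monocytes and macrophages, with median log2 ratios of 2.79 and 2.83. The 9 genes of MHC class I loading had medians of 0.18 and 0.27 in those classes, and Tapbp stood at 0.83 and 0.93. The ratio of Psme1 (0.49 and 0.57) lay above the medians of core, regulatory and MHC class I loading genes in both classes and far below those of the interferon response genes.

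Levels also differed between classes within a library. In PBS the 16 core genes summed to 2366 CPM in dendritic cells, 2069 in T cells, 1704 in NK cells, 1598 in monocytes and macrophages, 1460 in B cells, 1249 in microglia-gated cells, 1001 in plasma cells and 772 in neutrophils. The counting intervals of NK cells (1612 to 1800) and of monocytes and macrophages (1576 to 1621) overlap, as do those of B cells with both of these and with microglia-gated cells. In EM the order was dendritic (2485), plasmacytoid dendritic (2254), T (2149), monocyte and macrophage (2144), microglia-gated (2058), NK (2014), B (1490) and basophil or mast cells (1027). There the intervals of T cells, plasmacytoid dendritic cells, monocytes and macrophages and microglia-gated cells overlap, and those of NK cells (1931 to 2100) overlap both phagocyte classes. Over cells of all depths, monocytes and macrophages were below T cells in PBS and level with them in EM. They were deeper than T cells in PBS (medians of 9130.5 and 4447 UMIs) and shallower in EM (981 and 2083). In EM they held 2451 against 1742 CPM at 500 to 1000 UMIs and 2099 against 1860 CPM at 1000 to 2000. At 2000 to 4000 they held 1969 against 2101 CPM, with intervals that overlap, and at 4000 to 8000 2130 against 2503 CPM. The part of depth in the order of classes was not tested.

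**Figure D3:**
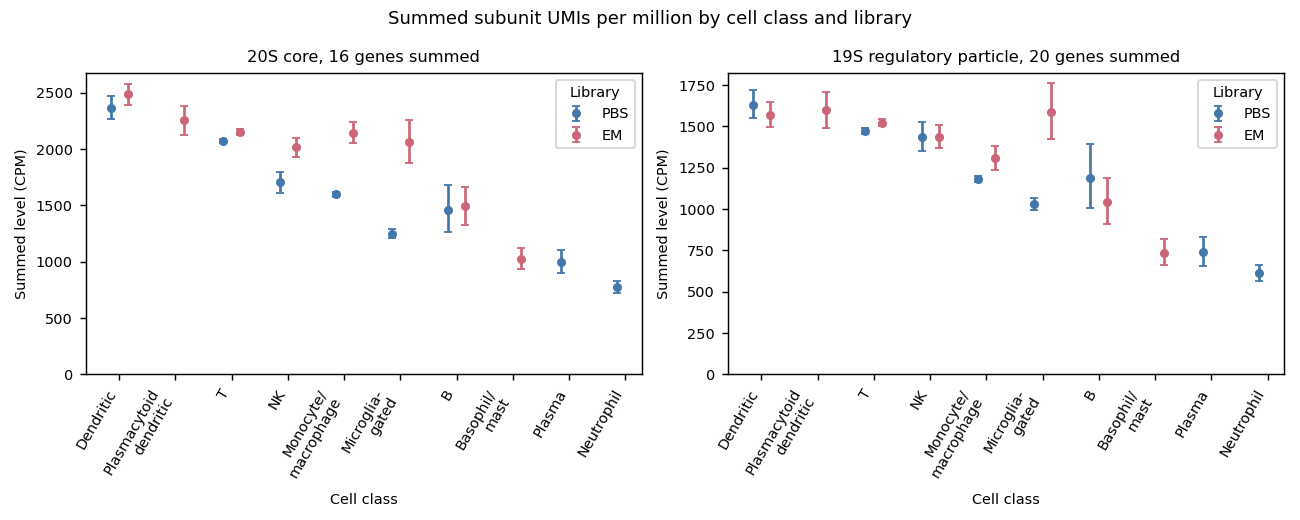
Summed level (CPM, linear axis from 0) of the 16 core genes (left) and the 20 regulatory genes (right) by cell class and library, for classes with at least 40 cells in a library, with bars for the exact 95% Poisson interval. Neutrophils of the PBS library are the lowest class on both sides, and the gap between PBS (blue) and EM (red) is widest in microglia-gated cells.

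Neutrophils, of which PBS held 605 and EM 1, were low in nearly every subunit. All 14 measured core genes and 19 of 20 regulatory genes were at least 1.5-fold lower than in PBS T cells, beside 59.5% of all measured genes. The median log2 ratios were -1.37 and -1.43, against -0.86 over all measured genes. Psmb6 was the furthest apart in the core, at 5.81 CPM in neutrophils and 41.3 CPM in T cells, and Psmd4 the nearest of the regulatory genes, at 78.5 and 106 CPM. Psme2 and Psme4 were nearer to T cells than the core, with log2 ratios of -0.55 and -0.47, and Psmb9 stood at -0.25 with an interval that holds 0. Neutrophils were shallower than PBS T cells, with medians of 1654 and 4447 UMIs. PBS T cells of 1000 to 2000 UMIs held 1599 CPM of core RNA, against 2069 in all PBS T cells and 772 in all neutrophils. The part of depth in this comparison was not tested.

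Over cells of all depths, dendritic cells were above T cells in the core in both libraries. The median log2 ratios were 0.27 in PBS and 0.26 in EM, with 11 and 12 of 14 genes higher. Of these core genes 1 was at least 1.5-fold higher in each library, beside 19.4% and 17.8% of all measured genes, and none as much lower (34.6% in both). Regulatory genes were nearly level, at medians of 0.12 and 0.03, against -0.20 and -0.25 over all measured genes. Psme1 and Psme2 were further above T cells, at log2 ratios of 0.92 and 0.94 in PBS and 0.72 and 0.57 in EM. Psme3 stood at 0.01 in PBS and -0.31 in EM, and Psme4 at 0.17 and 0.08. Dendritic cells were deeper than T cells, with medians of 8151 against 4447 UMIs in PBS and 3289 against 2083 in EM. In PBS the summed core was 1892 against 1915 CPM at 4000 to 8000 UMIs, and 2553 against 2593 CPM at 8000 or more. In EM it was 2478 against 1860 CPM at 1000 to 2000 UMIs and 2466 against 2101 CPM at 2000 to 4000. At 4000 to 8000 the EM values were 2489 and 2503 CPM. The part of depth was not tested.

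T cells that contained at least 3 of 12 cell cycle genes had more core RNA than the rest. With each cell reduced to 1000 UMIs, 400 PBS T cells and 275 EM T cells were cycling by this rule, and 46 and 145 shallower cells were left out. Core genes summed to 2543 CPM in cycling and 1835 CPM in other PBS T cells, a log2 ratio of 0.47 (0.37 to 0.57), and to 2324 and 2025 CPM in EM, for a log2 ratio of 0.20 (0.08 to 0.31). Without this reduction the log2 ratios were 0.52 and 0.35. The difference between the libraries was not tested.

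The members shared in this unequally. In PBS, 5 of 14 core and 5 of 20 regulatory genes were at least 1.5-fold higher in cycling T cells, beside 12.4% of all measured genes, and in EM 2 of 14 and 5 of 20 were, beside 13.9%. As much lower in cycling cells were none of them in PBS (29.3% of all measured genes) and 1 regulatory gene in EM (25.7%). Psma5 stood at 97.5 CPM in cycling and 47.2 CPM in other PBS T cells, and Psma7 at 210 and 113 CPM. In EM neither was higher in cycling cells: Psma5 stood at 69.1 and 78.0 CPM and Psma7 at 116 and 127 CPM, with intervals that hold 0. Psmc1 was higher in cycling cells of both libraries, at log2 ratios of 0.73 and 1.01. Psme1 was not: it stood at 225 and 260 CPM in PBS and 291 and 390 CPM in EM, and Psme4 at 82.5 and 134 CPM in PBS. Cycling cells were 16.8% of PBS and 8.72% of EM T cells before the reduction, and without them the T cell medians were 0.10 for the core and 0.13 for the regulatory genes.

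T cells were also split by their CD4, CD8 and Foxp3 UMIs. Core genes summed to 2073 CPM in PBS and 2140 CPM in EM in cells with CD8 UMIs (3145 and 2639 cells), to 2005 and 2119 CPM in those with Cd4 only (464 and 1045 cells) and to 2026 and 2314 CPM in those with Foxp3, the regulatory T cell factor (130 and 641 cells). Psme1 was higher in each, at log2 ratios of 0.56, 0.45 and 0.47. Psme2 stood at 0.28 in CD8, 0.55 in Cd4 and 0.83 in Foxp3 cells, and Psme4 at -0.39, -0.83 and 0.00 (164 CPM in both libraries). Differences between these subsets were not tested.

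Depth moved with the summed level in T cells. In PBS the core summed to 1715 CPM in T cells of 2000 to 4000 UMIs, 1915 CPM at 4000 to 8000 and 2593 CPM at 8000 or more, and in EM to 2101, 2503 and 2795 CPM. EM was thus above PBS at each of these depths, with log2 ratios of 0.29 (0.25 to 0.33), 0.39 (0.35 to 0.43) and 0.11 (0.02 to 0.19). Over all T cells, where the EM cells were shallower (median 2083 against 4447 UMIs), the summed core had a log2 ratio of 0.06. The regulatory genes gave 0.23, 0.39 and 0.10 at these depths, the last with an interval that holds 0, and 0.05 over all T cells. Below 2000 UMIs the core log2 ratio was 0.05 at 500 to 1000 UMIs, with an interval that holds 0, and 0.22 at 1000 to 2000. The regulatory log2 ratio there was -0.31 and 0.05, both with intervals that hold 0. Dendritic cells had 1 shared depth, 4000 to 8000 UMIs (33 PBS and 101 EM cells), where the core log2 ratio was 0.40 (0.23 to 0.57), the regulatory 0.25 (0.05 to 0.46) and that of Psme1 -0.01. With dendritic cells thinned to 1000 UMIs the core median was 0.32. The part of depth in the result was not tested.

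**Figure D4:**
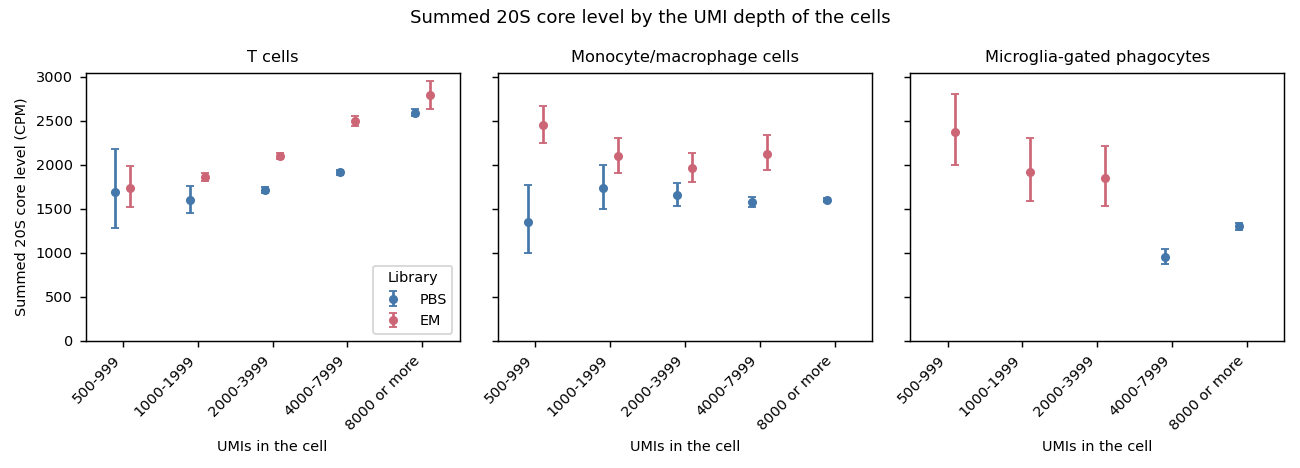
Summed level of the 16 core genes (CPM, linear axis from 0) by the UMI depth of the cells (horizontal axis) in T cells, monocytes and macrophages and microglia-gated cells, for PBS (blue) and EM (red), with exact 95% Poisson intervals and points only where a library had at least 20 cells. EM lies above PBS at each shared depth, T cells of both libraries are higher from 2000 UMIs on with each step in depth, and microglia-gated cells have no shared depth.

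Among monocytes and macrophages the core was higher in EM at all 4 shared depths. Its log2 ratio was 0.86 at 500 to 1000 UMIs, 0.28 at 1000 to 2000, 0.25 at 2000 to 4000 and 0.43 at 4000 to 8000, with PBS between 1348 and 1732 CPM and EM between 1969 and 2451 CPM. Psme1 gave 1.43 (0.25 to 2.91), 0.41, 0.34 and 0.26, where only the first interval, on 50 PBS cells, leaves out 0. The regulatory genes did not hold: their log2 ratio was 0.49, 0.39, -0.04 and -0.30 over the same depths. In the microglia-gated class the libraries had no depth in common, with PBS cells at a median of 10318.5 and EM cells at 987 UMIs, so depth and treatment cannot be told apart there. Within EM, microglia-gated cells of 500 to 1000 UMIs held 2373 CPM of core RNA (1993 to 2803). Those of 2000 to 4000 held 1850 CPM (1533 to 2214), and these intervals overlap. Within PBS the deeper cells held more: 958 CPM (876 to 1046) at 4000 to 8000 UMIs and 1301 CPM (1259 to 1344) at 8000 or more. The part of depth in this class was not tested.

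Other features moved with the phagocyte results. The nuclear RNA Malat1 stood at 2769 CPM (PBS) and 1016 CPM (EM) monocytes and macrophages and at 2161 and 580 CPM in microglia-gated cells, and T cell markers reached 0.745% and 1.95% of their T cell level in the former. The part of Malat1 in the result was not tested. Cell cycle genes were also higher in EM in monocytes and macrophages, where 11 of 12 measured were higher (median log2 ratio 0.72). In microglia-gated cells 7 of 11 were higher (1.06). The cell cycle medians were -0.99 in T cells, -2.11 in NK cells and -1.82 in dendritic cells. The part of cell cycle RNA in the phagocyte result was not tested. With T cell RNA subtracted the core median of monocytes and macrophages was 0.46, as before. In an alternative chosen after seeing the data, phagocytes with any Arg1 or Mrc1 UMI were left out, which kept 215 PBS and 480 EM monocytes and macrophages and 101 and 147 microglia-gated cells. The core median was then 0.20 and 1.00, the regulatory median -0.02 and 0.79, and the log2 ratio of Psme2 in monocytes and macrophages was -0.52 in place of 0.22. The core difference of monocytes and macrophages was thus smaller among cells without Arg1 and Mrc1, and that of microglia-gated cells was not smaller. A deeper cell is more likely to hold a UMI of either gene, so this alternative also selects by depth. Before it, monocytes and macrophages had medians of 9130.5 UMIs in PBS and 981 in EM. The depth of the kept cells was not compared.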

How the data were processed

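The deposited matrices hold unnormalized UMI counts of each gene in each barcode, for 1 PBS and 1 EM library. The submitters' processing notes name CASAVA 1.8, STARsolo and mm10. For annotation, cell calling and strand, the sources used here give nothing. Cells were kept from 200 genes and 500 UMIs upwards if no more than 20% of their UMIs were mitochondrial (573 PBS and 64 EM barcodes were over the mitochondrial limit).

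A cell was assigned to the class with the most detected markers if it had at least 3 of them and 2 more than any other class. Phagocytes with at least 3 microglial markers were set apart. No doublet caller was run, and the lead over other classes and the alternative of at most 1 marker of any other class bear on doublets. Counts were summed over the cells of a class and given as CPM, and ratios are log2 of EM CPM over PBS CPM with no pseudocount. Intervals are exact 95% Poisson intervals for levels and conditional binomial (Clopper-Pearson) intervals for ratios. They treat UMIs as independent and cover counting error only.

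No test was made and no p-value is given. The members and lists were chosen with earlier results of these data known. The 2 highest and 2 lowest core and regulatory members are named in each class with at least 100 cells in each library, all activators and chaperones with at least 50 UMIs are named, and the catalytic members, Pomp, Nfe2l1, Psmf1 and Adrm1 are named whatever their values. Dendritic cells, with 95 PBS cells, fall under that limit. Members named outside this rule, among them Psmc4 and Psmd2 in dendritic cells, were chosen after their values were seen. The ratios and intervals were tested on simulated data. Alternatives were tried for filters, gates, depth, weighting, scaling, T cell RNA and cycling cells. Gene coordinates and sequences are from GENCODE and RefSeq on GRCm38. The work used Python 3.11.15, numpy 2.4.6, pandas 2.3.3, scipy 1.17.1 and matplotlib 3.10.9. Some genes of the ubiquitin lists are not reported here.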

Additional observations from a re-analysis of the deposited data

Results flagged for a closer look

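4 members had counting intervals on opposite sides of 0 in a pair of cell classes, under the same comparison of EM with PBS. Psma1 had a log2 ratio of 0.73 in microglia-gated cells and -0.21 in T cells. Psmb4 stood at 0.71 in microglia-gated cells and -0.11 in T cells. Psmb5, the gene of the chymotrypsin-like subunit, stood at 1.19 in microglia-gated cells, on 10 EM UMIs, and -0.29 in T cells. Psmd2, a scaffold of the 19S base, stood at 1.00 in microglia-gated cells and -0.51 in dendritic cells. With 1 library per group, none of these differences between classes was tested.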

How the results depend on the processing

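No paired analysis was possible because each group has 1 library and no result comes from a test. The core and regulatory medians and the Psme1 and Psme2 log2 ratios of 5 classes were recomputed under the alternative settings, which gave 244 values in all. Of these, 220 lay within the counting or member spread of the reported value and 24 lay outside it. That spread can be wide: the core median of monocytes and macrophages lay within it at 0.20, against 0.46 as reported. A turned sign was counted only for reported values past 1.5-fold, and 0 of those turned. They were Psme2 in NK cells and the core, regulatory and Psme1 values of microglia-gated cells. Under that fold some signs did turn. The Psme1 ratio of dendritic cells turned when thinned, and Psme2 of microglia-gated cells with equal weight per cell (-0.25). Psme2 also turned in monocytes and macrophages without Arg1 or Mrc1 cells (-0.52), and in dendritic cells with at most 1 marker of any other class (-0.03). Core medians of T and dendritic cells, and regulatory medians of NK cells, dendritic cells and monocytes and macrophages, also turned under some setting. With at most 1 marker of any other class, Psme2 was 0.59 in T cells, 1.19 in NK cells and 1.01 in microglia-gated cells, and the regulatory median of monocytes and macrophages was 0.31. With cells thinned to 1000 UMIs, that median was 0.32, Psme2 was 0.57 in monocytes and macrophages and Psme1 was -0.014 in dendritic cells. With equal weight per cell, Psme1 was 0.48 and Psme2 0.50 in dendritic cells. Centred on all measured genes, Psme1 was 0.60 and Psme2 0.57 in T cells. The same centring gave a core median of 0.69, a regulatory median of 0.32 and a Psme1 ratio of 0.80 in monocytes and macrophages, and a regulatory median of 0.84 in microglia-gated cells. Without cycling cells, Psme1 was 0.55 and Psme2 0.59 in T cells. Of the settings chosen after seeing the data, only cells of 500 to 2000 UMIs gave Psme2 1.21 in T cells. In NK cells they gave a regulatory median of -0.80, Psme1 1.14 and Psme2 1.23, and in monocytes and macrophages a regulatory median of 0.52. Without Arg1 or Mrc1 cells, Psme1 was 0.30 and Psme2 -0.52 in monocytes and macrophages. The cause of these shifts was not tested. The regulatory median of microglia-gated cells gave no value under 2 settings (at most 1 other marker, thinned cells), because too few members reached the UMI minimum, and cells of 500 to 2000 UMIs were too few for microglia-gated and dendritic cells. The EM phagocytes limit the precision: microglia-gated cells held 454 core UMIs in EM against 4224 in PBS.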
